A study of Mus musculus with 64 samples.

Results

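The level of 9 genes of the oligodendrocyte lineage was followed in preparations of microglia. They were chosen by name, without a threshold on any measured value, as 9 rows of a counts table of 49671 genes. Earlier results of these data were known when the names were chosen. The set comprised 6 myelin genes (Mbp, Mog, Mag, Mobp, Cnp and Cldn11) and 3 genes of oligodendrocyte precursor cells (Pdgfra, Cspg4 and Olig1). All 9 passed the count filter in every main comparison.

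Total RNA depleted of ribosomal RNA was sequenced from cells of adult male C57BL/6 mice (substrain C57BL6/N in the methods of the study) that had been enriched with magnetic beads against CD11b, a surface protein of microglia and other myeloid cells. The mice lived under a reversed light-dark cycle. The study sampled microglia in the light and dark phases of this cycle, which its section heading calls day and night. Day is therefore read here as lights on, not as clock time. The 64 libraries came from 2 regions, hippocampus and frontal cortex, with 32 libraries each. In each region 16 libraries were labelled Day and 16 Night. Each such set was split evenly among the condition names Soci, Cogn, Ctr0 and Ctr1, which gave 16 groups of 4. The labels do not explain the condition names, so these are used as they stand, and no further allele or agent is named for any group. The labels also do not tie replicates to separate animals, so p-values measure the spread between these libraries, which may in part be technical.

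Oligodendrocytes wrap axons in myelin, a stack of membrane held together by a small set of very abundant proteins. They arise from precursor cells that persist in the adult brain and carry the PDGF receptor alpha and the proteoglycan NG2 on their surface. Microglia do not make myelin, but they can engulf it. In bulk RNA, fewer cells of a type and less RNA per cell cannot be told apart.

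The regulatory sequence in front of a member is shown for 4 genes on which the results turn. Cspg4 and Pdgfra are the precursor genes whose ratio is described, Mobp is the myelin gene that followed Mbp most closely, and Cnp is the member that passed in no comparison of phases or regions. Promoter windows from 250 bases before to 50 bases after the transcription start were found in RefSeq (GRCm38.p6) for 7 of the 9 members, in 9 windows, whereas Mbp and Olig1 had no entry. Windows are printed 5′ to 3′ on the strand of the gene. Capitals mark either ACAAAG or ACAATG, letters recognised by SOX factors such as the oligodendrocyte regulator SOX10, or GGGCGG, the GC box, each on either strand, so that CTTTGT and CCGCCC are their reverse complements. Cspg4 lies at chr9:56864854-56865153, Pdgfra at chr5:75152001-75152300, Mobp at chr9:120149492-120149791 and Cnp at chr11:100574689-100574988, all on the plus strand.
Cspg4: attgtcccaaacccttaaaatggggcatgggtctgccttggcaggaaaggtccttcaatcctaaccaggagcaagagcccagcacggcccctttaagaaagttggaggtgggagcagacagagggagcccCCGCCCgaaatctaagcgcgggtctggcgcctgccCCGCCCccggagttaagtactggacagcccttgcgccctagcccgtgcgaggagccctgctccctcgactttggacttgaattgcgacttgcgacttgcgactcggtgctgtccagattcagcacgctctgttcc
Pdgfra: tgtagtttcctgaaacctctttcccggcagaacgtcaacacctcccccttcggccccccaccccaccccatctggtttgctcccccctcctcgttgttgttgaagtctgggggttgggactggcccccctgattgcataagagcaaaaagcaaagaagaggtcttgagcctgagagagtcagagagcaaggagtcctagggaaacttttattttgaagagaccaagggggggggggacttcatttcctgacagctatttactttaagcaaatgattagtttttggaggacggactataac
Mobp: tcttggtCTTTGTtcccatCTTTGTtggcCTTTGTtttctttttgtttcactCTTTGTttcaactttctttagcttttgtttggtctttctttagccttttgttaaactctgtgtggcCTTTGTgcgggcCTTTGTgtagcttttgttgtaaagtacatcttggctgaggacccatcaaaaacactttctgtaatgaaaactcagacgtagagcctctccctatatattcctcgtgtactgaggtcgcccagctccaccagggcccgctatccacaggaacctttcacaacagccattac
Cnp: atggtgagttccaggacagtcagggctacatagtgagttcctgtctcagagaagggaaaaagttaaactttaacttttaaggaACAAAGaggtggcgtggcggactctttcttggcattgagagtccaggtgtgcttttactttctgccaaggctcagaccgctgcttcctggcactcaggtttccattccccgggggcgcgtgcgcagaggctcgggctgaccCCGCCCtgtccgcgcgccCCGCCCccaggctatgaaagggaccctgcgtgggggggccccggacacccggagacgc
The Mobp window held 6 SOX matches and no GC box, and the Cnp window held 1 SOX match and 2 GC boxes. Cspg4 held 2 GC boxes and Pdgfra neither motif. Over the 7 matched members, SOX letters occurred in Mag, Mobp and Cnp, in 4 of 9 windows, against 28.6% of 32851 windows of all genes. A GC box occurred in Cldn11, Cspg4 and Cnp, in 3 of 9 windows, against 35.7%. TATAAA, the TATA box (13.6% of all windows), and CAGCTG, an E-box bound by basic helix-loop-helix factors such as the OLIG proteins (16.3%), were searched on either strand and matched none of the 9 windows. These matches describe the letters of the windows only.

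Library totals ran from 10.2 to 84.5 M counts, and 3 hippocampal libraries (Night Soci, Night Cogn and Day Cogn, each replicate 4) exceeded 40 M. Levels are given as CPM, the share of a gene in the counts of its library on a common scale set by TMM, and a floor of 3 counts corresponded to 0.0310 to 0.317 CPM, covering counting error only. The label microglia was checked with 12 microglial markers such as Cx3cr1, P2ry12 and Tmem119. None was at 0 in any library, and their summed level ran from 12251 to 25682 CPM. The summed level of the 6 myelin members ran from 87.2 to 399.6 CPM, and that of the 3 precursor members from 6.83 to 35.1 CPM. Every member had at least 1 count in every library.

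Among the members, levels can be ordered per kilobase of exon. By the median over 64 libraries, Mbp, which encodes the myelin basic protein that seals the cytoplasmic faces of the sheath, was highest at 9.14 CPM per kb (range 5.20 to 31.0). Cnp, which encodes a phosphodiesterase of non-compact myelin, followed at 6.40 CPM per kb (4.28 to 10.02). Mobp, another basic protein of compact myelin, had 3.51 (1.64 to 10.9) and Mag, the adhesion glycoprotein of the innermost myelin layer, 3.32 CPM per kb (2.59 to 5.16). Olig1, a transcription factor of the whole lineage, had 1.60 (0.504 to 4.86) and Cldn11, the tight junction protein of myelin, 1.47 CPM per kb (0.161 to 3.55). Pdgfra, the receptor through which PDGF drives precursor division, and Cspg4, the NG2 proteoglycan, had 0.576 (0.262 to 1.21) and 0.567 CPM per kb (0.201 to 1.67). Mog, a late glycoprotein of the outermost layer, was lowest at 0.427 CPM per kb (0.0441 to 1.49). The ranges of all neighbours in this order overlapped.

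Members differed widely in how much they varied. The highest library exceeded the lowest 1.99-fold for Mag and 2.34-fold for Cnp, but 5.96-fold for Mbp, 6.66-fold for Mobp, 8.31-fold for Cspg4 and 9.64-fold for Olig1. The fold was 22.1 for Cldn11 and 33.7 for Mog, whose counts per library reached down to 4 and 1, so counting error is large for both. Mbp made up a median of 53.4% of the summed CPM of the myelin members in hippocampus and 55.6% in frontal cortex, and Mog 0.599% and 0.476%.

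**Figure D1:**
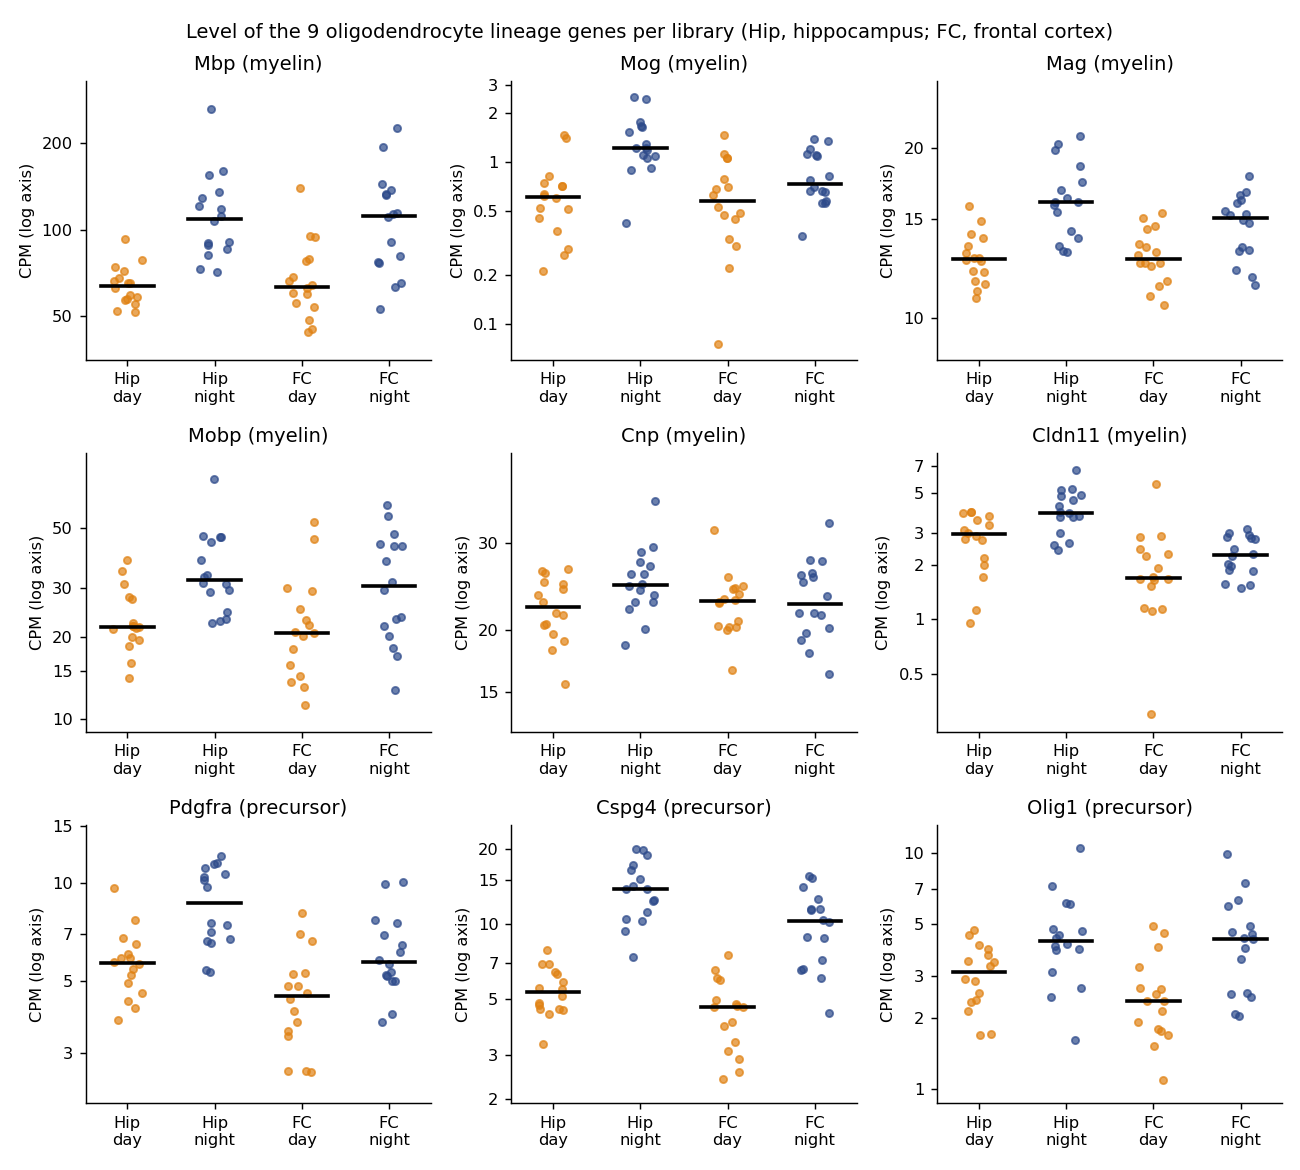
Level of each member in every library as CPM on a log axis, by region (Hip, hippocampus; FC, frontal cortex) and phase, with 16 libraries per column. Points are libraries and bars are medians. For Cspg4, 15 of 16 hippocampal night libraries lie above the highest day library, whereas for Cnp the day and night columns largely coincide.

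The phases were compared inside each region, with conditions pooled. In hippocampus, 8 of the 9 members were lower in day, 5 of 6 myelin genes and all 3 precursor genes. Of all 15527 genes tested, 42.2% differed between the phases and 18.8% were lower in day. In frontal cortex 5 of the 9 members were lower in day, 2 of 6 myelin genes and all 3 precursor genes, where 41.8% of 14975 genes differed and 21.3% were lower in day. No member was higher in day in either region. The median log2 change over all genes tested was 0.02 in hippocampus and -0.02 in frontal cortex. The share of all calls that were lower depended on the scaling: with library totals in place of TMM, 4031 genes were lower and 262 higher in hippocampus, against 2913 and 3637 with TMM. In frontal cortex these numbers were 3412 and 653 against 3183 and 3083. All 18 day-night estimates of the members were below 0 under either scaling.

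Of the precursor genes, Cspg4 changed most. In hippocampus its level ran from 3.32 to 7.91 CPM in day libraries (median 5.33) and from 7.42 to 19.97 CPM in night libraries (median 13.8). All but 1 night library exceeded the highest day library, a single night library reaching into the day range. Cspg4 fell by 1.30 ± 0.12 on the log2 scale (SE, adjusted p = 1.92e-09), or 2.47-fold. In frontal cortex it ran from 2.40 to 7.56 CPM in day (median 4.66) and from 4.40 to 15.6 CPM in night (median 10.3), with 11 night libraries above the highest day library. The log2 change there was -1.15 ± 0.17 (adjusted p = 3.55e-06), or 2.22-fold lower in day.

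Pdgfra changed in the same direction by less. Its hippocampal level ran from 3.78 to 9.66 CPM in day (median 5.68) and from 5.33 to 12.1 CPM in night (median 8.66), and 8 night libraries lay above the day range. It was 1.48-fold lower in day, with a log2 change of -0.57 ± 0.13 (adjusted p = 0.000644). In frontal cortex, day libraries ran from 2.63 to 8.13 CPM (median 4.50) and night libraries from 3.75 to 10.1 CPM (median 5.72), and only 2 night libraries exceeded the day range. The log2 change was -0.44 ± 0.16 (adjusted p = 0.0230).

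Olig1 was lower in day in both regions with broad overlap of the libraries. In hippocampus it ran from 1.70 to 4.70 CPM in day (median 3.12) and from 1.62 to 10.5 CPM in night (median 4.24), so the lowest library of all was a night library. The log2 change was -0.54 ± 0.19 (adjusted p = 0.0203). In frontal cortex the day range was 1.09 to 4.89 CPM (median 2.36) and the night range 2.04 to 9.89 CPM (median 4.34), with a log2 change of -0.79 ± 0.22 (adjusted p = 0.00421).

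Of the myelin genes, Mbp was lower in day in both regions. Its hippocampal level ran from 51.5 to 92.8 CPM in day (median 63.9) and from 71.2 to 263 CPM in night (median 109), and the night libraries were both higher and more spread (SD 47.4 against 10.8 CPM, n = 16). Of the night libraries, 9 exceeded the highest day library. The log2 change was -0.83 ± 0.14 (adjusted p = 1.14e-05), or 1.78-fold lower in day. In frontal cortex Mbp ran from 44.1 to 139 CPM in day (median 63.3) and from 52.9 to 225 CPM in night (median 112), with only 3 night libraries above the day range, and the log2 change was -0.71 ± 0.18 (adjusted p = 0.00195).

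Mag varied little, and its hippocampal level was lower in day with overlapping ranges of the phases. It ran from 10.9 to 15.8 CPM in day (median 12.7) and from 13.1 to 21.03 CPM in night (median 16.1), with 10 night libraries above the day range and a log2 change of -0.32 ± 0.07 (adjusted p = 0.000217). In frontal cortex it ran from 10.6 to 15.4 CPM (median 12.7) and from 11.4 to 17.9 CPM (median 15.1), with 6 night libraries above the day range. The log2 change there was -0.19 ± 0.06 (adjusted p = 0.0182).

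Mog, Mobp and Cldn11 were lower in day in hippocampus and did not pass the threshold in frontal cortex. Hippocampal Mog ran from 0.214 to 1.47 CPM in day (median 0.607) and from 0.418 to 2.53 CPM in night (median 1.22), with a log2 change of -1.05 ± 0.22 (adjusted p = 0.000306). Hippocampal Mobp ran from 14.1 to 38.1 CPM (median 21.8) and from 22.4 to 74.96 CPM (median 32.2), with a log2 change of -0.58 ± 0.15 (adjusted p = 0.00257). Hippocampal Cldn11 ran from 0.960 to 3.93 CPM (median 2.94) and from 2.40 to 6.64 CPM (median 3.87), with a log2 change of -0.50 ± 0.16 (adjusted p = 0.0146). The phases overlapped for each of these genes, with 6, 5 and 7 night libraries above the day range.

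In frontal cortex the log2 change was -0.41 ± 0.24 for Mog (adjusted p = 0.173), -0.49 ± 0.22 for Mobp (0.0663) and -0.21 ± 0.21 for Cldn11 (0.442). The cortical medians in day and night were 0.575 and 0.737 CPM for Mog, 20.7 and 30.6 CPM for Mobp, and 1.69 and 2.26 CPM for Cldn11. A miss of the threshold does not show equality, since the 95% interval of the Mobp change reached from -0.92 to -0.07 and that of Mog from -0.88 to 0.06.

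Cnp was the member with no call in either region. In hippocampus it ran from 15.6 to 26.6 CPM in day (median 22.2) and from 18.7 to 36.4 CPM in night (median 24.7), and in frontal cortex from 16.6 to 31.8 CPM (median 22.9) and from 16.3 to 32.9 CPM (median 22.6). The log2 changes were -0.15 ± 0.08 (adjusted p = 0.118, 95% interval -0.31 to 0.0015) and -0.04 ± 0.08 (adjusted p = 0.719, 95% interval -0.20 to 0.12). Exons of Cnp overlap exons of Dnajc7, a cochaperone gene on the opposite strand with 116149 counts against 27657 for Cnp, and the strand setting of the counting was not stated, so the Cnp values are uncertain.

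No member separated the phases fully in either region. Of all genes tested, 0.444% in hippocampus and 0.361% in frontal cortex had day and night ranges that did not overlap. The hippocampal call of Cldn11 was lost without replicate 2 (log2 change -0.43, adjusted p = 0.0964) or 4 (-0.38, 0.0890). That of Olig1 was lost without replicate 1 (-0.52, adjusted p = 0.102) or 4 (-0.43, 0.0923). Over all genes tested, the hippocampal share called was 28.2%, 29.2% and 32.5% without replicate 1, 2 or 4, against 42.2% with all libraries. In frontal cortex the call of Mag was lost without replicate 2, 3 or 4 (adjusted p = 0.0504, 0.0667 and 0.0803). That of Pdgfra was lost without replicate 2 (log2 change -0.28, adjusted p = 0.198) or 3 (0.0676), and that of Olig1 without replicate 3 (0.0619), while Mobp passed without replicate 4 (0.0172). The number of cortical members called fell from 5 to 3 without replicate 2 and to 2 without replicate 3. Over all genes tested, the cortical share called fell from 41.8% to 26.5% and 32.4% in these settings. Cspg4 and Mbp kept their calls without any replicate number in both regions.

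**Figure D2:**
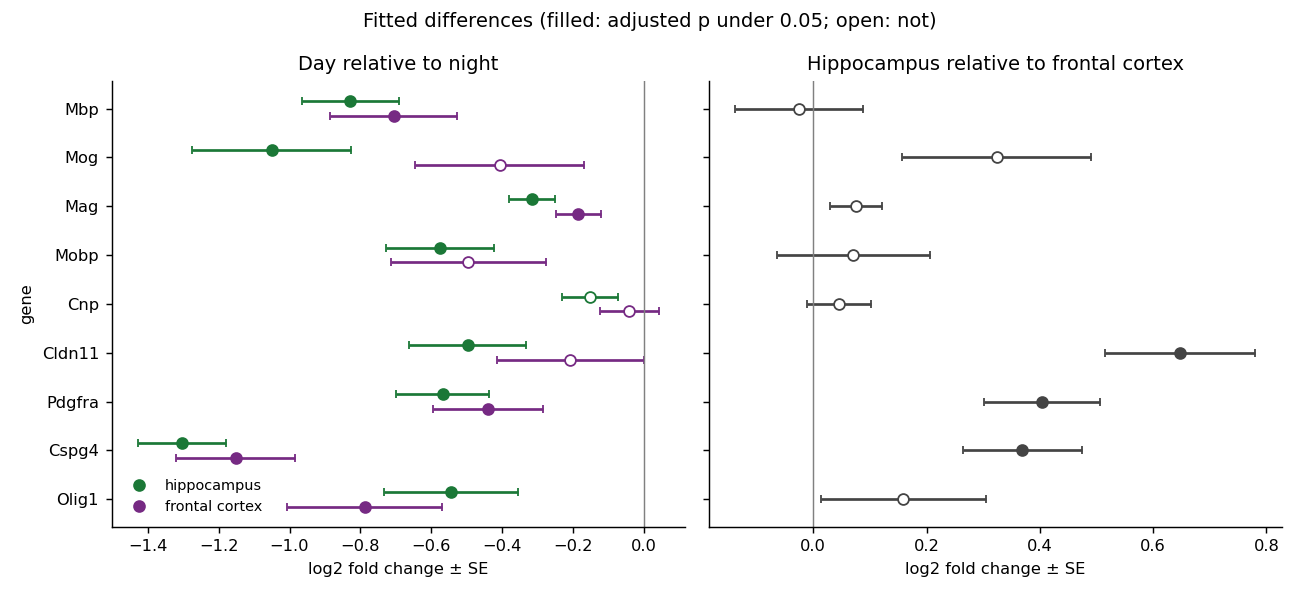
Fitted log2 fold changes with their SE for the 9 members, day relative to night on the left (green, hippocampus; purple, frontal cortex) and hippocampus relative to frontal cortex on the right. Filled points have an adjusted p under 0.05. All 18 day-night estimates lie below 0, from -1.30 for hippocampal Cspg4 to -0.04 for cortical Cnp.

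Levels of a pair of precursor genes and of a pair of myelin genes are set side by side as a description with no test, since both pairs were chosen after their changes had been seen. The log2 ratio of Cspg4 to Pdgfra was -0.07 ± 0.38 in day and 0.66 ± 0.38 in night in hippocampus (SD, n = 16), and -0.02 ± 0.40 and 0.65 ± 0.50 in frontal cortex. The log2 ratio of Mbp to Cnp, whose values are uncertain as said above, was 1.53 ± 0.20 in day and 2.14 ± 0.34 in night in hippocampus, and 1.56 ± 0.47 and 2.19 ± 0.49 in frontal cortex. The summed myelin level was a median of 8.86 times the summed precursor level in hippocampal day libraries and 7.02 times in night libraries, and 11.8 and 9.42 times in frontal cortex, with overlapping ranges.

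Within single conditions of the hippocampus, the mean log2 CPM of the 4 day libraries was below that of the 4 night libraries in 36 of 36 combinations of member and condition, where 52% of the combinations over all genes tested were. In frontal cortex this held for 30 of 36, against 50.7%. All 4 day libraries lay below all 4 night libraries in 12 of the 36 hippocampal combinations, against 7.61% over all genes, and in 4 of the 36 cortical ones, against 5.68%. These are descriptions of the same libraries and were not tested.

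Cspg4 was lower in day in all 8 combinations of region and condition. Hippocampal Soci libraries held 6.90, 4.58, 6.32 and 3.32 CPM in day and 15.2, 14.3, 9.35 and 10.3 CPM in night. Cogn libraries held 4.76, 6.42, 7.91 and 5.51 CPM in day and 18.9, 13.9, 7.42 and 12.4 CPM in night, the only hippocampal condition in which the phases overlapped. Ctr0 libraries held 4.38, 4.58, 5.15 and 5.58 CPM in day and 19.7, 19.97, 12.4 and 11.1 CPM in night. Ctr1 libraries held 4.56, 5.88, 4.83 and 6.94 CPM in day and 13.8, 16.5, 10.4 and 17.2 CPM in night. In frontal cortex the phases were apart in 2 of the 4 conditions, Cogn (2.57 to 6.53 against 8.83 to 14.0 CPM) and Ctr1 (3.11 to 5.97 against 10.2 to 15.6 CPM).

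For Mbp the day-night difference in mean log2 CPM was -1.12 to -0.48 among the hippocampal conditions and -0.97 to -0.04 among the cortical ones. Hippocampal Ctr1 libraries held 59.2, 52.2, 65.4 and 78.5 CPM in day and 88.4, 155, 160.0 and 129 CPM in night, and Ctr0 libraries 58.3, 57.1, 71.9 and 55.2 CPM in day and 118, 89.5, 107 and 263 CPM in night, so the phases were apart in both. In frontal cortex only Cogn was apart, with 93.9, 48.3, 59.8 and 95.3 CPM in day and 133, 193, 132 and 114 CPM in night. Cortical Soci libraries overlapped widely, with 62.6, 55.7, 64.01 and 139 CPM in day and 80.7, 63.2, 90.2 and 76.5 CPM in night, and there the mean CPM was higher in day (80.4 against 77.6).

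The 6 combinations in which day was not lower were all in frontal cortex. Cnp accounted for 2 of them, and Mag, Mobp, Cldn11 and Pdgfra for 1 each, and the largest such difference was 0.26 on the log2 scale, for Cldn11.

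**Figure D3:**
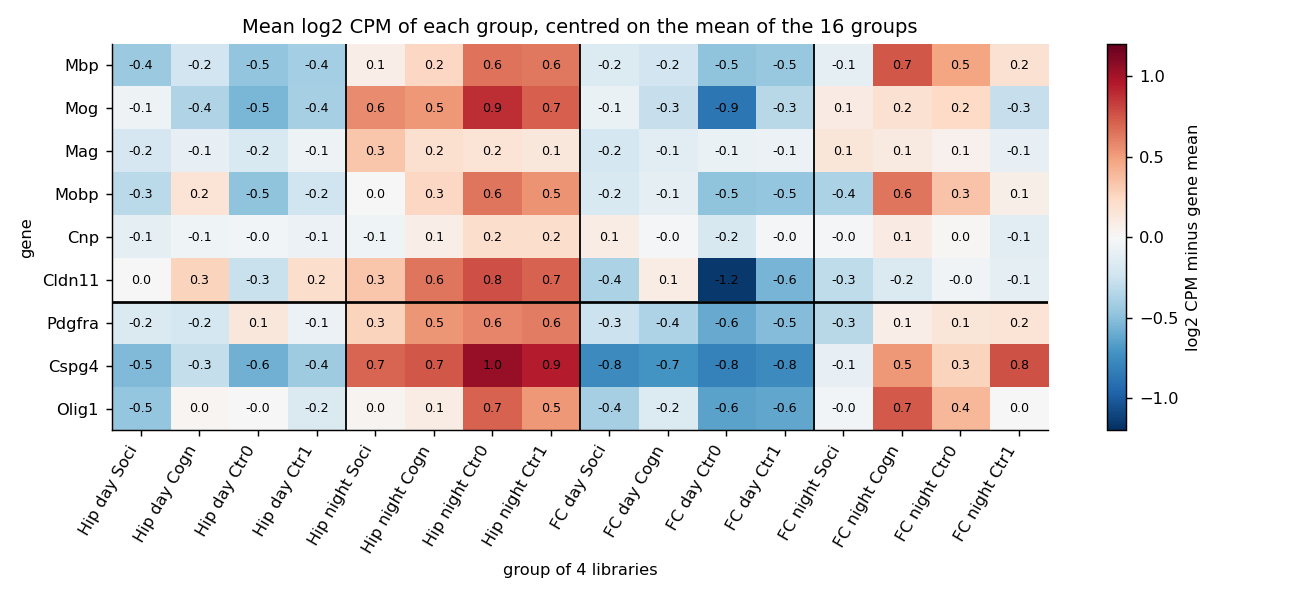
Mean log2 CPM of each member in the 16 groups of 4 libraries, centred on the gene's mean over the groups, with myelin genes above the horizontal line and precursor genes below it. Red is above and blue below the gene's mean. The night blocks are mostly red and the day blocks mostly blue, most evenly for hippocampal Cspg4, while Mag and Cnp stay near 0.

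No member passed the threshold for a difference among the 4 conditions in either region in edgeR. The same held for all genes, with 0% of 16826 in hippocampus and 0% of 16238 in frontal cortex passing. At an unadjusted p under 0.05 there were 1090 and 1094 genes, and DESeq2 called 6 and 1 genes, no member among them. The lowest unadjusted p of a member was 0.130 in hippocampus, for Olig1, with means of 3.00 ± 1.06 CPM in Soci, 3.72 ± 1.41 in Cogn, 4.66 ± 2.47 in Ctr0 and 4.10 ± 1.80 in Ctr1 (SD, n = 8; adjusted p = 0.668). In frontal cortex it was again Olig1 (0.239), with 3.14 ± 1.56, 4.42 ± 1.84, 3.72 ± 2.78 and 2.82 ± 1.08 CPM (adjusted p = 0.749).

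No member passed the threshold for a difference among conditions in its day-night change either. With 4 libraries per group, a miss does not show equal changes. In hippocampus 0% and in frontal cortex 0.00616% of genes passed, with 695 and 603 genes at an unadjusted p under 0.05, and DESeq2 called 12 and 9 genes, no member among them. Hippocampal Mobp had the lowest unadjusted p of a member (0.0295, adjusted 0.999), with day-night differences in mean log2 CPM of -1.12 to -0.09 among conditions. The group means of Mobp were 21.3 ± 1.31 CPM in day and 26.9 ± 3.93 CPM in night for Soci (SD, n = 4). They were 30.6 ± 7.23 and 32.8 ± 10.03 CPM for Cogn. They were 19.3 ± 3.56 and 44.5 ± 20.5 CPM for Ctr0 and 23.4 ± 7.29 and 40.1 ± 11.3 CPM for Ctr1.

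The regions were compared over all 64 libraries, averaged over the phases. Of the 9 members, 3 were higher in hippocampus and none in frontal cortex, where 16.6% of 16069 genes differed and 10.4% were higher in hippocampus. Of these genes 1675 were higher and 992 lower in hippocampus, against 854 and 1685 with library totals and 1419 and 1722 with the 4 loci that each held over 1% of all counts left out. Cldn11 ran from 0.960 to 6.64 CPM in hippocampus (median 3.61) and from 0.300 to 5.59 CPM in frontal cortex (median 2.00), with a log2 difference of 0.65 ± 0.13 (adjusted p = 0.000226), or 1.57-fold. Pdgfra had medians of 6.60 CPM (3.78 to 12.1) and 5.20 CPM (2.63 to 10.1), with a log2 difference of 0.40 ± 0.10 (adjusted p = 0.00311). Cspg4 had medians of 7.66 CPM (3.32 to 19.97) and 6.32 CPM (2.40 to 15.6), with a log2 difference of 0.37 ± 0.11 (adjusted p = 0.00971). The ranges of the regions overlapped for each. Without the libraries of replicate 2 only Cldn11 was called, with adjusted p = 0.0979 for Pdgfra and 0.138 for Cspg4. In that setting 8.29% of all genes tested differed between the regions.

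The other members did not pass. Mbp, the most abundant, had medians of 76.2 CPM in hippocampus and 77.4 CPM in frontal cortex, and a log2 difference of -0.03 ± 0.11 with a 95% interval of -0.25 to 0.20. Mog had 0.903 and 0.675 CPM and a log2 difference of 0.32 ± 0.17 (adjusted p = 0.185). For Mag, Mobp, Cnp and Olig1 the log2 differences were 0.08, 0.07, 0.04 and 0.16.

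The same fit tested for an unequal day-night change in hippocampus and frontal cortex. It did not pass for any of the 9 members (191 genes passed, 1.19%), so the calls found in hippocampus alone are not shown to be particular to it. Mog came nearest, with a difference in log2 change of -0.68 ± 0.33 (adjusted p = 0.486, and 0.0455 before adjustment). For Cspg4 it was -0.19 with a 95% interval of -0.61 to 0.22, and for Mbp -0.16 with an interval of -0.61 to 0.28. By edgeR 1 member had an unadjusted p under 0.05, and DESeq2 called none of the members.

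Members were also compared with each other among libraries of the same group, after the mean of each of the 8 phase and condition groups of a region had been subtracted from log2 CPM. Of 16 relations with Mbp, 12 had an adjusted p under 0.05 by Pearson r and 11 by Spearman rho. These p-values came from 2-sided permutation within groups (n = 32 per region, with 1e-05 the smallest p that 100000 resamples can give). The share of all genes that would pass the same test was not determined, so these counts are not shown to be particular to the lineage. Mobp followed Mbp most closely, with r = 0.81 in hippocampus (rho = 0.73, p = 2e-05 and 0.00028, adjusted 0.000107 and 0.00112) and 0.94 in frontal cortex (rho = 0.95, both p = 1e-05, adjusted 8e-05). Without the 2 libraries farthest from the median of Mbp, r was 0.76 and 0.93. Olig1, a precursor gene here, came next with r = 0.72 in hippocampus (rho = 0.62, p = 0.00027 and 0.0016, adjusted 0.000864 and 0.00366) and 0.83 in frontal cortex (rho = 0.84, both p = 1e-05, adjusted 8e-05), and 0.66 and 0.76 without the 2 libraries.

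Pdgfra had r = 0.54 in hippocampus (rho = 0.55, p = 0.00412 and 0.00394, adjusted 0.00732 and 0.00788) and 0.73 in frontal cortex (rho = 0.71, p = 8e-05 and 0.00023, adjusted 0.00032 and 0.00112), with 0.49 and 0.66 when the 2 libraries were left out. Cspg4 had r = 0.05 in hippocampus (rho = 0.02, p = 0.849 and 0.913 before and after adjustment) and 0.33 in frontal cortex (rho = 0.40, p = 0.0787 and 0.0423, adjusted 0.0969 and 0.0521), with 0.20 and 0.37 when the 2 libraries were left out. Mag had r = 0.50 in hippocampus (rho = 0.54, p = 0.0319 and 0.00799, adjusted 0.0425 and 0.0128) and 0.07 in frontal cortex (rho = 0.12, p = 0.708 and 0.578, adjusted 0.755 and 0.616), with 0.62 and 0.24 when the 2 libraries were left out. Cnp had r = 0.66 (rho = 0.63, p = 0.00068 and 0.00089, adjusted 0.00155 and 0.00253) and 0.34 (rho = 0.34, p = 0.126 and 0.105, adjusted 0.145 and 0.121), with 0.54 and 0.43. Both followed Mbp in hippocampus, and neither relation passed in frontal cortex, and the difference between the regions was not tested.

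Cldn11 had r = 0.50 in hippocampus (rho = 0.50, p = 0.00314 and 0.00616, adjusted 0.00628 and 0.011) and 0.53 in frontal cortex (rho = 0.63, p = 0.00056 and 0.00095, adjusted 0.00149 and 0.00253), with 0.45 and 0.58 when the 2 libraries were left out. Mog had r = 0.49 (rho = 0.40, p = 0.00802 and 0.0421, adjusted 0.0128 and 0.0521) and 0.45 (rho = 0.44, p = 0.0243 and 0.033, adjusted 0.0353 and 0.0481), with 0.50 and 0.38. Without the libraries of replicate 4, which in hippocampus include the 3 deepest, r for Mobp was 0.76 in hippocampus and 0.93 in frontal cortex, and that for Mog in frontal cortex was 0.30 (n = 24).

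**Figure D4:**
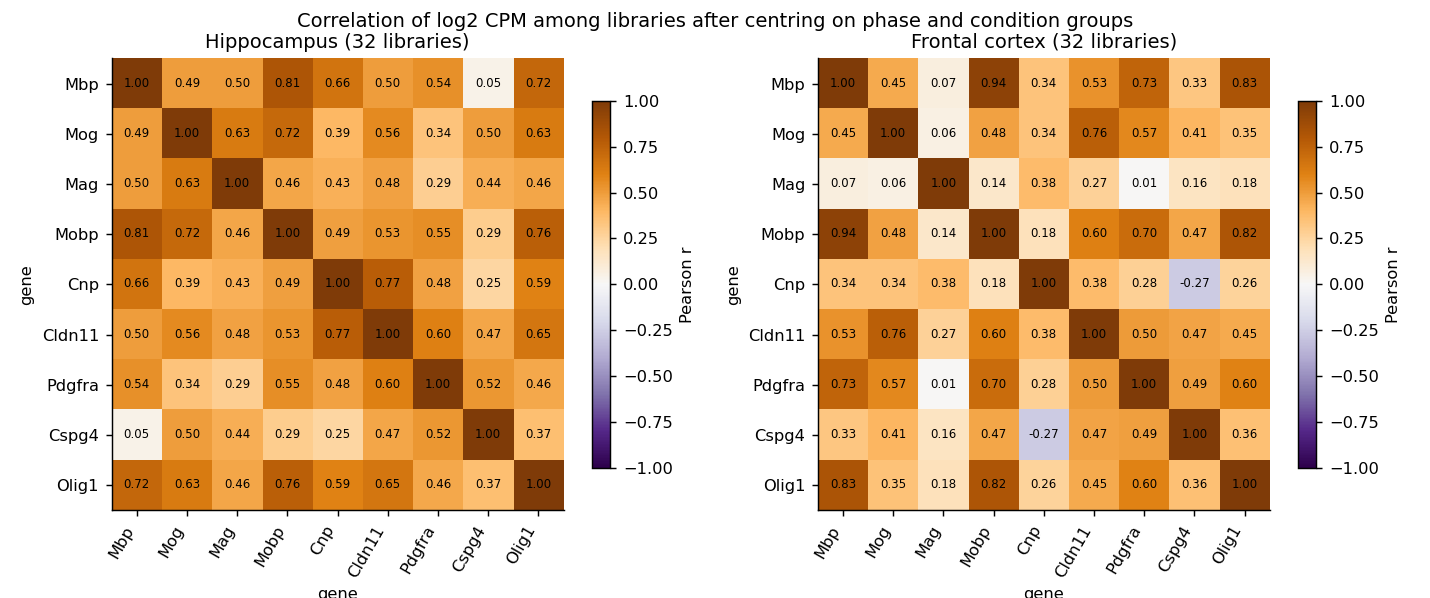
Pearson r between members among the 32 libraries of each region after centring on the 8 phase and condition groups. Mbp, Mobp and Olig1 form the strongest set in both regions (0.72 to 0.94), and Cspg4 has r = 0.05 with Mbp in hippocampus and -0.27 with Cnp in frontal cortex.

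The genes whose pattern over all 64 libraries was most like that of a member were ranked by Pearson r among 14349 genes whose average log2 CPM was 0 or more, as a description that includes the phases and shared scaling. For Mbp these were Plekhb1 (r = 0.97), Ndrg2, Asrgl1, Atp1b2 and Bcas1 (0.92), and Mobp ranked 12. Olig1 ranked 104, Pdgfra 375, Cspg4 588, Cldn11 1149, Cnp 1221 and Mag 1835 of 14348 genes. For Olig1 they were Hepacam (0.91), Stum, Chn1, Pcsk1n and Nefl, with Mobp at rank 53 and Mbp at rank 55. For Pdgfra they were Tmem47, Cntn1 (0.85 each), Nedd4, Car2 and Clu. For Cspg4 they were Vwa3a, Dock6 (0.91 each), Tbx2, Tpm2 and Mcam, and Mbp stood at rank 1347. Of the 20 most alike genes, 2 for Mbp were on a list of further precursor genes, and none on a list of further myelin genes. None for Olig1, Pdgfra or Cspg4 was on either of these lineage lists. For Olig1, 1 was on a neuron list, and for Cspg4, 1 was on a list of mural cells of vessels.

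Further genes of the lineage, from lists of 23 myelin and 18 precursor genes, were read beside the members. Of the further myelin genes that passed the count filter, 9 of 16 were lower and 1 higher in day in hippocampus (median log2 change -0.53), and 8 of 15 lower and 1 higher in frontal cortex (median -0.46). The higher gene was Mal, a proteolipid of myelin that T cells and epithelia also use, with log2 changes of 0.44 ± 0.16 (adjusted p = 0.0262) and 0.56 ± 0.21 (0.0268). The largest falls were in Gpr37, an oligodendrocyte receptor (-0.96 ± 0.20 in hippocampus and -0.71 ± 0.22 in frontal cortex), Gjc3, a glial connexin (-0.73 ± 0.19 in hippocampus), and Lpar1, a receptor for lysophosphatidic acid (-0.97 ± 0.17 in frontal cortex). Between regions, 6 of 17 were higher in hippocampus and none lower, among them Gpr37 (0.62 ± 0.15).

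Of the further precursor genes, 9 of 16 were lower in day in hippocampus (median log2 change -0.52) and 10 of 14 in frontal cortex (median -0.71), and none was higher. Bcas1, a marker of newly forming oligodendrocytes (-0.86 ± 0.19), and Olig2, the partner of Olig1 (-0.72 ± 0.19), fell most in hippocampus, and Ptprz1, a receptor phosphatase shared with astrocytes (-1.30 ± 0.24), and Lhfpl3 (-1.25 ± 0.25) in frontal cortex. Between regions 5 of 16 were higher in hippocampus, led by Sema5a (0.77 ± 0.14) and Matn4 (0.73 ± 0.16), and 2 were lower, Cacng4 (-0.72 ± 0.14) and Vcan (-0.33 ± 0.11). Of both lists, the genes most often at 0 were Gjb1 and Nipal4 (16 libraries each), Tmem125 (11), and Opalin and Nkx6-2 (4 each).

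Markers of other cell types moved with the same phases, and their part in the changes of the members was not tested. Pdgfra is also made by fibroblasts and Cspg4 by mural cells. Of the fibroblast markers, 6 of 7 were lower in day in hippocampus and 2 of 7 in frontal cortex, and their summed level ran from 32.7 to 90.8 CPM in hippocampal day and 62.4 to 207 CPM in night, and from 22.6 to 63.2 and 21.7 to 103 CPM in frontal cortex. Of the mural markers, 5 of 8 were lower in day in hippocampus and 4 of 7 in frontal cortex, with sums of 62.5 to 141 CPM in day and 99.3 to 189 CPM in night, and of 54.9 to 116 and 46.7 to 225 CPM. Their log2 changes in hippocampus and frontal cortex were -1.24 and -1.26 for Myh11, -1.19 and -1.01 for Notch3, and -1.07 and -1.14 for Acta2. They were -0.72 and -0.49 for Vtn, -0.24 and -0.11 for Anpep, and -0.07 and 0.09 for Abcc9. Rgs5, the mural marker with the highest median level (49.9 CPM), had 0.04 and 0.10, and Higd1b, tested in hippocampus only, -0.95. Only Lum and Kcnj8 among these lists were at 0, each in 2 libraries.

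Astrocyte markers were lower in day for 6 and higher for 1 of 8 genes in hippocampus and lower for 6 of 8 in frontal cortex (sums 315 to 514 against 331 to 1838 CPM, and 325 to 613 against 276 to 2448 CPM). Neuron markers were lower for 2 of 9 and 8 of 9 genes (sums 63.5 to 228 against 72.2 to 249 CPM, and 62.9 to 188 against 85.8 to 268 CPM), and endothelial markers for 6 of 8 and 1 of 8. No astrocyte or neuron marker was at 0 in any library. Choroid plexus and ependymal markers were lower for 5 of 5 tested genes in hippocampus (median log2 change -2.52), and for none of 3 in frontal cortex, where 0 of 3 also had an unadjusted p under 0.05 by edgeR. Microglial markers went the other way, with 8 of 12 and 5 of 12 higher in day and none lower (median log2 change 0.27 and 0.21).

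**Figure D5:**
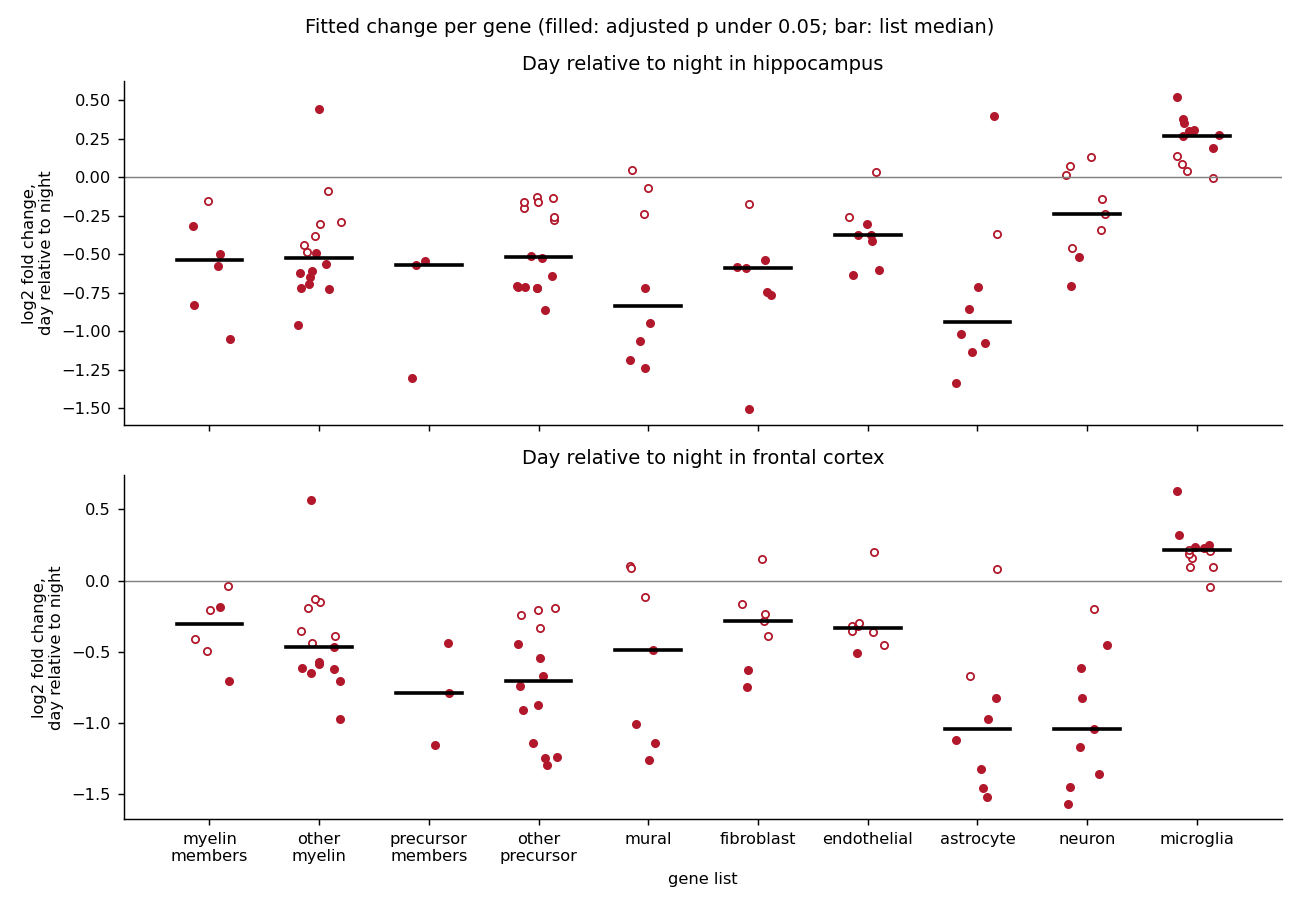
Fitted log2 change, day relative to night, of every tested gene of each list in hippocampus (top) and frontal cortex (bottom), without the choroid plexus list. Filled points have an adjusted p under 0.05 and bars are list medians. Medians lie below 0 for each list except the microglial markers (0.27 and 0.21).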

How the data were processed

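Per the labels and the study's methods, the authors depleted ribosomal RNA from total RNA of bead-enriched microglia, mapped reads to GRCm38.p5 with STAR 2.7.3a and counted them per gene with featureCounts (Subread 2.0.0). The deposited values are raw counts, not normalized, in 64 libraries. Strand and multimapping settings are not given in the sources used here. Gene symbols and positions came from GENCODE M21. Day and night (16 and 16 libraries per region, conditions pooled), conditions (8 phase and condition means) and regions (4 region and phase means, 64 libraries) were compared by quasi-likelihood F tests in edgeR 4.0.16 (R 4.3.3) with TMM, filterByExpr and Benjamini-Hochberg adjustment over all genes tested at a threshold of 0.05; each SE was taken as the size of the log2 change over the root of its F. log2 CPM used a prior count of 2. The fits were also run on simulated counts with a constant dispersion and independent libraries. That setting is simpler than these data, and no result on the members rests on it. Promoter windows came from RefSeq.

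The 9 members and all gene lists were chosen with earlier results of these data known. All members were named, and of the further lists the 2 genes with the largest change past the threshold in each direction and comparison. Alternatives were median-of-ratios scaling, library totals, 4 loci over 1% of counts (46.0% of all counts) left out, no filter, at least 1 CPM in 16 libraries, DESeq2 1.42.0, a replicate block, leaving out replicates and leaving out libraries over 40 M counts.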

Additional observations from a re-analysis of the deposited data

Results flagged for a closer look

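A library was picked out by the gap between its log2 CPM and the nearest of the 3 others of its group. That gap had to exceed the critical share of the range for 4 values. This happened in 6 of 144 combinations of member and group, where chance gives 7.2. Mbp was 139 CPM in frontal cortex Day Soci replicate 4, against 55.7 to 64.01 CPM. Mog was 1.54 CPM in hippocampus Night Soci replicate 1, against 1.06 to 1.11. Mobp was 23.3 CPM in hippocampus Night Ctr1 replicate 1, against 44.3 to 46.6. Cldn11 was 6.64 CPM in hippocampus Night Ctr0 replicate 4, against 3.66 to 3.89, and 0.960 CPM in Day Soci replicate 4, against 3.13 to 3.88. Pdgfra was 5.33 CPM in hippocampus Night Cogn replicate 3, against 9.77 to 10.5.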

How the results depend on the processing

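Leaving out each replicate number gave 6 to 9 called members in hippocampus, 2 to 5 in frontal cortex and 1 to 3 between regions. The low cortical values were 3 without replicate 2 and 2 without replicate 3, and the low regional value was 1 without replicate 2. The shares of all genes called were then 28.2% to 47.6%, 26.5% to 43.2% and 8.29% to 22%. Under every other alternative the counts of called members stayed within 1.5 times the reported ones. No member was called for conditions or for differences in change. The day-night direction kept its sign in 116 of 116 hippocampal and 103 of 104 cortical values of the members, the exception being cortical Cnp, at 0.051 without replicate 4 and -0.086 to 0.051 over the replicates left out. The other changes of sign were in small, uncalled values. In the region difference they were Mbp with the replicate block (0.0095), Mag (-0.028), Mobp (-0.047) and Cnp (-0.068) with library totals, and, over the replicates left out, Mbp (-0.083 to 0.029) and Mobp (-0.050 to 0.15). For the day-night change compared between the regions, leaving out replicates gave -0.34 to 0.14 for Mobp and -0.085 to 0.41 for Olig1. Their causes were not tested.

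Same-numbered day and night libraries deviated with correlations of -0.59 to 0.38 in hippocampus and -0.46 to 0.74 in frontal cortex. Of 32 libraries in each region, 4 and 11 correlated best with their own number. Between hippocampal and cortical libraries of the same number the correlations were -0.74 to 0.78, and 20 of 64 libraries correlated best with their own number. The numbers were not taken as pairs, and the region fit treated all 64 libraries as independent. The replicate block was the replicate number within a region, and between regions the pair of libraries of the same phase, condition and number. With the replicate block 8, 6 and 3 members were called in hippocampus, frontal cortex and between regions. Of all genes tested, 42.2%, 43.4% and 19.8% were called with it, against 42.2%, 41.8% and 16.6% without. Mobp was added in frontal cortex (adjusted p = 0.0293), and the block changed no other call of the members. Library totals moved the median log2 change of all genes to -0.14 in hippocampus, -0.09 in frontal cortex and -0.11 between regions, and added hippocampal Cnp (-0.29, adjusted p = 0.00861) and cortical Mobp (0.0207). Over all genes, library totals gave 4293, 4065 and 3862 calls for day and night in hippocampus, in frontal cortex and for hippocampal conditions, against 6550, 6266 and 0. Leaving out replicates gave 4319 to 7356, 3941 to 6403 and 1322 to 3518 calls over all genes for day and night in hippocampus, in frontal cortex and between regions (2667 reported), 15 to 224 for the day-night change by region, against 191 (107 without the libraries over 40 M), and 328 for hippocampal conditions without replicate 1. Mog passed the count filter in frontal cortex in 8 of 12 alternatives only, and held 1 to 107 counts per library.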
